A study of Drosophila melanogaster with 24 samples.

Results

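H3R17me2 is histone H3 carrying 2 methyl groups on an arginine of its tail. In flies the mark is placed by Art4, the counterpart of mammalian CARM1, a coactivator of nuclear receptors, and it is usually linked to active genes. LKRSDH encodes an enzyme that joins the first steps of lysine breakdown, by way of saccharopine, and it is also described as a corepressor in ecdysone signalling that holds back Art4. The comparison described here asked where the mark lay in the heads of old flies with and without a normal LKRSDH gene.

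The libraries compared were the 4 H3R17me2 immunoprecipitations of 40-day-old flies, out of 24 samples in the series. They are replicates 1 and 2 of LKRSDH MB01942 mutants (mutant) and replicates 1 and 2 of w1118 flies (control). MB01942 is a transposon insertion that traps GFP, the mutants are homozygous, and w1118 is a laboratory strain without that insertion. All flies were males kept on a 12 h light and 12 h dark cycle, each sample held 25 heads, and the study calls the 2 libraries of a group biological replicates. Whole heads hold brain, eye, fat body and muscle, so the lists average over cell types, and the mark in fewer cells cannot be told apart from less of the mark per cell. For comparison, the 4 H3R17me2 lists of 3-day-old flies of the same genotypes and the 4 H3K27me3 lists of 40-day-old flies were used. H3K27me3 is the mark of Polycomb repression.

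Each library was deposited as a list of broad peaks called against input chromatin, without read counts, so the number of reads behind each list is unknown and no value below carries a counting error. The measures taken from the peak positions on the dm6 genome were the covered length of a list and the gene coverage, which is the percentage of a gene body under peaks. The peaks were shallow. Those with a listed -log10 p of at least 2 made up 3.78% and 4.05% of the mutant lists, against 5.52% and 4.15% of the control lists, so nearly all peaks counted here were weaker. The median fold enrichment over input was 1.40 and 1.42 in the mutant lists, against 1.28 and 1.41 in the control lists. Peaks with a q value under 0.05 numbered 18 and 5 in the mutant lists, against 130 and 4 in the control lists. Of the 130 in control replicate 1, 57 lay on sequences outside the assembled chromosomes, 29 on the X and 40 on the autosomal arms.

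The covered length was 37.4 and 47.6 Mb in the mutant lists, against 21.1 and 37.9 Mb in the control lists. Mutant replicate 1 lay just under control replicate 2, so the genotypes overlapped, and control replicate 1 stood far below the other lists. The group values were 42.5 ± 7.17 Mb in mutants and 29.5 ± 11.8 Mb in controls (SD, n = 2 each), a difference of 13.02 Mb that overlapping groups do not set apart (exact permutation test of libraries, two-sided, p = 0.667; with 2 libraries a side no p under 0.33 is possible). Without control replicate 1 the difference was 4.65 Mb. The number of peaks was 16071 and 14583 in the mutant lists, against 10627 and 15817 in the control lists (exact permutation test, two-sided, p = 0.667, n = 2 each), and without control replicate 1 the mutant mean was lower by 490 peaks (-490). Peaks were longest in mutant replicate 2, with medians of 1659 and 2263 bp in the mutant lists and 1489 and 1714 bp in the control lists.

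**Figure D1:**
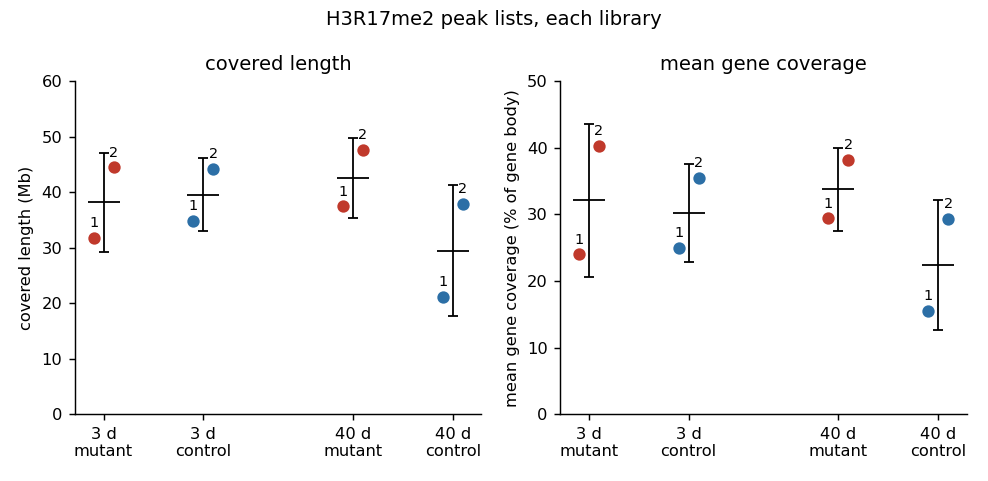
Covered length in Mb (left) and mean coverage of protein-coding gene bodies in percent (right) of the H3R17me2 lists at 3 and 40 days of age. Points are libraries marked with their replicate number, and bars are the mean and SD of 2; the list of 40-day-old control replicate 1 (21.1 Mb) lies lowest in both panels, and the other 40-day-old control list (37.9 Mb) lies beside mutant replicate 1 (37.4 Mb).

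The 3-day-old lists gave no such gap. They covered 31.8 and 44.5 Mb in mutants, against 34.9 and 44.1 Mb in controls, a difference of -1.36 Mb. The contrast between genotypes at 40 days exceeded that at 3 days by 14.4 Mb, which 36 exchanges of ages within genotype do not set apart (exact permutation of 8 libraries, two-sided, p = 0.278, where 0.0556 would be the lowest possible).

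The chromosomes differed more than the genotypes did. On the 4 autosomal arms together, peaks covered 33.9% and 43.1% of the bases in the mutant lists and 18.9% and 34.2% in the control lists. On the X, peaks covered 0.674% and 0.201% in the mutant lists and 0.521% and 0.560% in the control lists, so the X was nearly free of peaks in every list. Few called peaks on the single X of males do not show that the mark is absent there. Chromosome 4, a small and largely heterochromatic chromosome, had 21.9% and 40.1% in the mutant lists and 16.3% and 29.7% in the control lists. H3K27me3 covered more of the X, with 9.66% and 14.9% in the 40-day-old mutant lists and 8.16% and 10.1% in the control lists of that age. The arm with the lowest coverage in mutant replicate 2 was 2R (38.5%), and its ranges did not overlap, with 32.2% and 38.5% in mutants against 17.8% and 32.1% in controls (exact permutation test, two-sided, p = 0.33, n = 2 each). That order rested on 0.0441 percentage points between mutant replicate 1 and control replicate 2.

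**Figure D2:**
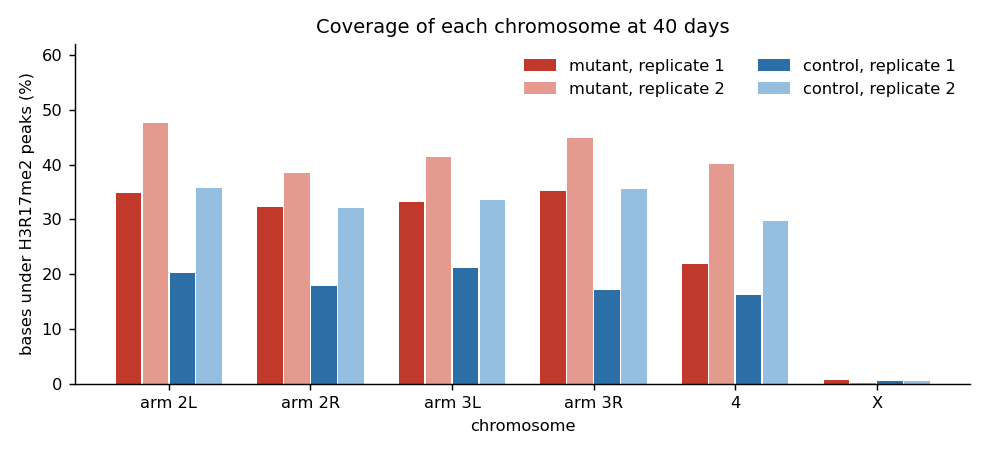
Percentage of the bases of each chromosome or arm under H3R17me2 peaks, one bar for each library of 40-day-old flies. On the arms the bars of mutant replicate 1 and control replicate 2 are nearly level (33.9% and 34.2% over the 4 arms), control replicate 1 is lowest at 18.9%, and the X is below 1% throughout.

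Control replicate 1 differed in where its peaks lay as well as in how many there were. Around 19494 transcription start sites of the autosomal arms, the other 3 lists dipped at the start site. The share of start sites under a peak was 21.2% and 32.8% in the mutant lists, against 33.1% and 43.8% at 2 to 3 kb on either side. In the control lists it was 19.8% and 22.8%, against 16.96% and 33.8% at 2 to 3 kb. Control replicate 1 was thus the only one of these 4 lists with a small rise at start sites, of 2.80 percentage points, and the others fell short of their flanks by 11.9, 11.0 and 11.0 points (values -11.9, -11.0 and -11.0). All 4 lists of 3-day-old flies had the dip as well (-7.80 and -8.55 points in mutants, -9.33 and -11.5 in controls).

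**Figure D3:**
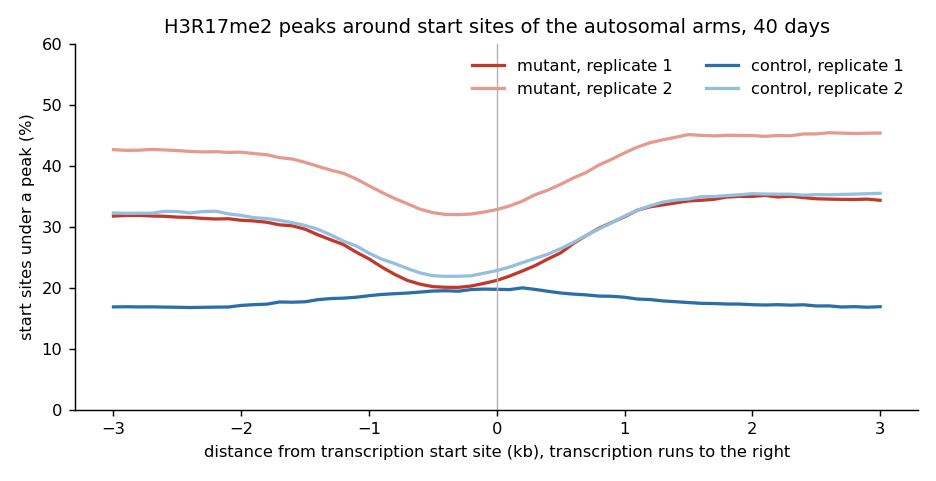
Percentage of 19494 start sites of the autosomal arms that lie under an H3R17me2 peak, by distance from the start site in kb, for the 4 lists of 40-day-old flies. Mutant replicates 1 and 2 and control replicate 2 dip at the start (21.2%, 32.8% and 22.8%), and control replicate 1 is nearly flat with its highest values near the start (19.8%).

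Coding sequence was the gene part with most of the mark in the 3 lists with the dip. Peaks covered 49.5% and 56.0% of the coding bases of the arms in the mutant lists, against 17.8% and 46.4% in the control lists. The mutant lists lay above both control lists here, with a mean difference of 20.7 percentage points (exact permutation test, two-sided, p = 0.33, n = 2 each). In 5' UTRs the values were 18.1% and 29.3% in the mutant lists, against 20.3% and 18.6% in the control lists, and the groups overlapped. Introns (32.7% and 40.7% in mutants, 20.6% and 33.1% in controls) and intergenic bases (29.1% and 40.5% in mutants, 17.6% and 30.9% in controls) overlapped too.

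The lists shared about as much across genotypes as within them. The mutant lists had 22.2 Mb in common, which is 59.3% of mutant replicate 1 and 46.6% of mutant replicate 2. Mutant replicate 1 and control replicate 2 shared 19 Mb, 50.8% and 50.2% of each. The control lists shared 8.49 Mb, 40.2% of replicate 1 and 22.4% of replicate 2. The Jaccard index, shared over joint length, was 0.353 for the mutant lists, 0.168 for the control lists, and 0.172, 0.338, 0.182 and 0.360 for the 4 pairs of a mutant with a control list, the lower values being those with control replicate 1.

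Mean coverage over 13945 protein-coding genes was 29.4% and 38.1% in the mutant lists, against 15.6% and 29.3% in the control lists. The 2 mutant values lay above both control values, by 0.0577 percentage points at the closest (exact permutation test, two-sided, p = 0.33, n = 2 each). The difference of the means was 11.3 points, and 4.43 points without control replicate 1. It was 0.472 points with the strongest peaks of each list up to the least covered length (21.1 Mb), 0.382 points with the 3 lists other than control replicate 1 at one covered length, and 0.0459 points with peaks at a -log10 p of at least 2. Of the genes, 5200 to 6156 had no peak in a mutant list, against 8612 in control replicate 1 and 6163 in control replicate 2. Genes with a peak in all 4 lists numbered 3074 of the autosomal arms (26.3%), and 18 genes were wholly covered in all 4. The longest of those was Act79B, an actin gene of muscle.

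Single genes varied widely between replicates. Coverage differed by 50 percentage points or more between the mutant replicates in 853 genes one way and 1931 the other, and between the control replicates in 804 and 2452 genes. Between mutant replicate 1 and control replicate 2, the pair of nearly equal covered length, 1182 genes were higher in the mutant and 1156 in the control by that margin. Genes were therefore called gained only where the lower mutant list exceeded the higher control list by at least 50 points, and lost in the reverse case. With 2 libraries a side this is a rule of size and not a test.

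By that rule 422 genes of 13945 gained the mark (3.03%) and 79 lost it (0.567%). In the looser order without a margin, both mutant lists lay above both control lists in 2629 genes (18.9%), and both control lists above both mutant lists in 524 (3.76%). The excess of gains depended on control replicate 1 and on covered length. With the other 3 lists alone, 603 genes had both mutant lists at least 50 points above the control and 420 had the control at least 50 points above both mutants. When those 3 lists were also held to the same covered length, 37.4 Mb, the counts were 479 higher and 581 lower in mutants. The rule counts fewer gains and losses the more libraries enter it, which bears on these numbers too. Just inside the rule for gains, rec had 74.8% and 72.6% in the mutant lists against 13.1% and 22.6% in the control lists, and just outside it CG14857 had 59.6% and 100% against 0% and 9.81%. For losses, Ir48c (0% and 0% in mutants, 50.8% and 66.7% in controls) lay inside and hui (0% and 21.7% in mutants, 100% and 71.4% in controls) outside.

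The gained and lost genes were short and autosomal. Their median length was 1253 bp for gained and 864 bp for lost genes, against 2166 bp for all protein-coding genes, and a single peak can span a short gene. Of the gained genes, 105 lay on 2L, 104 on 2R, 85 on 3L and 128 on 3R. None of 2196 genes on the X and none of 80 on chromosome 4 was gained or lost, the X being nearly free of peaks in all lists. Of the 11669 genes on the autosomal arms alone, 3.62% gained and 0.677% lost the mark. The shares of all genes set beside gene lists below include the X, which lowers them. Genes lying wholly inside another gene made up 18.5% of gained and 25.3% of lost genes, against 13.4% of all, and for these the mark cannot be given to one gene. No peak over a gained gene had a q value under 0.05 in any of the 4 lists. Of the 60 gained or lost genes that are named here, 17 kept their call with the strongest peaks up to the least covered length, and none with peaks at a -log10 p of at least 2.

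The 15 gained genes with the largest gap were all at 100% in both mutant lists and at 0% in both control lists. TFAM (chr3R:20575245-20577010, minus strand) encodes a protein that packages mitochondrial DNA. PolG2 and GatC share one transcribed stretch (chr2L:13831482-13833105, minus strand), so their values are one measurement. PolG2 encodes the accessory subunit of the mitochondrial DNA polymerase, and GatC a subunit of the mitochondrial enzyme that makes glutaminyl-tRNA. Cyp313a5 (chr3R:12232794-12234684) is a cytochrome P450 gene, ste24b (chr2R:16998610-17000126) encodes a protease of CAAX proteins, and Gr59c (chr2R:23102477-23103733) a gustatory receptor. The others were CG9444, CG6763, CG8159, CG14367, CG7366, CG31517, CG43168, CG13385 and 1 gene of 2L that overlaps Tfb4 (chr2L:1147822-1149449). Among them CG9444 was the longest at 2850 bp and CG13385 the shortest at 1238 bp.

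At 3 days the same genes showed no common direction. TFAM had 0% and 56.2% in 3-day-old mutants against 0% and 0% in controls of that age, Cyp313a5 had 93.2% and 0% against 45.5% and 33.6%, and CG13385 had 100% and 85.5% against 100% and 26.98%. CG7366 had 0% and 0% in 3-day-old mutants against 0% and 100% in controls. Over all 422 gained genes, the mean coverage at 3 days was 39.6% and 53.4% in mutants, against 38.2% and 56.7% in controls, and the groups overlapped (exact permutation test, two-sided, p = 1.0, n = 2 each).

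The 10 lost genes with the largest gap were at 0% in both mutant lists and at 100% in both control lists. Or85c (chr3R:8511734-8513022, minus strand) encodes an odorant receptor, and CheB53b (chr2R:16468209-16468934) belongs to a family of proteins of chemosensory bristles. The others were CG4627, CG34429, CG14537, CG5079, CG32457, CG33770, CG31680 and CG33769, the last lying beside CG33770 on 3L. In each control list CG33769 and CG33770 lay under 1 peak, so they are not independent measurements. At 3 days Or85c had 0% and 100% in mutants against 100% and 100% in controls, and CG32457 had 100% and 0% against 0% and 0%. Over all 79 lost genes, the 3-day-old lists gave 32.5% and 41.1% in mutants and 39.0% and 46.5% in controls (exact permutation test, two-sided, p = 0.667, n = 2 each).

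**Figure D4:**
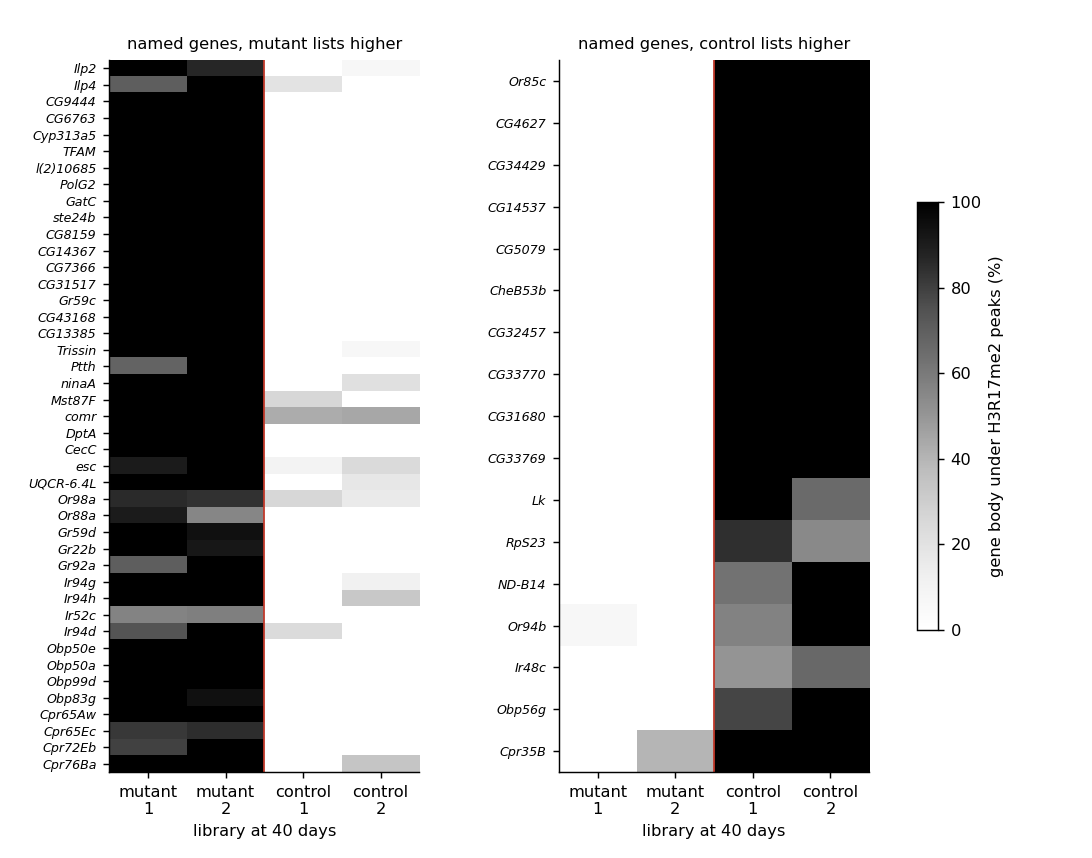
Percentage of the gene body under H3R17me2 peaks, from white (0%) to black (100%), in the 4 lists of 40-day-old flies for the named genes that gained (left panel) or lost (right panel) the mark by the rule of 50 percentage points. Most are wholly covered on one side and free of peaks on the other; comr, at 42.9% and 44.3% in the control lists, is among the partly covered ones.

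The insulin-like peptides, which brain neurosecretory cells and other tissues release to act on growth, metabolism and lifespan, include genes that the study examined in detail. Of the 8 genes, 2 gained the mark and none lost it, beside 3.03% of all genes gained. Ilp2 (chr3L:9799698-9800440, plus strand), a major peptide of those cells, had 100% and 86.8% coverage in the mutant lists, against 0% and 6.19% in the control lists. Ilp4 (chr3L:9803399-9804263, minus strand) had 70.3% and 100% in the mutant lists, against 19.3% and 0% in the control lists. That neither pair of mutant values overlapped its control values follows from the rule for gained genes. With the strongest peaks up to the least covered length neither gene was called, the difference being 46.9 points for Ilp2 and -9.65 points for Ilp4, and with peaks at a -log10 p of at least 2 both were at 0 in difference. Both genes lie, like Ilp1 and Ilp3, inside another gene, CG32052, within a stretch of 25.5 kb that runs on to Ilp5, so their values come from a few peaks of 1 place.

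The neighbours of Ilp2 and Ilp4 overlapped between genotypes. Ilp3 had 100% and 0% in the mutant lists against 0% and 0% in the control lists. Ilp5 had 100% and 100% in the mutant lists against 0% and 100% in the control lists, so that it differed only from control replicate 1. Ilp1 had 44.1% and 67.4% in the mutant lists against 0% and 100% in the control lists, and Ilp8, a peptide of damaged or growing tissue, had 65.2% and 16.97% against 0% and 35.7%. Ilp6 and Ilp7, both on the X, were at 0% in all 4 lists. Over the whole stretch of Ilp1 to Ilp5 (chr3L:9798420-9823897), peaks covered 45.8% and 66.8% in the mutant lists and 26.8% and 50.6% in the control lists, with mutant replicate 1 below control replicate 2. At 3 days Ilp2 had 100% and 0% in mutants against 0% and 84.1% in controls, and Ilp4 had 100% and 100% against 0% and 97.1%.

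The 300 bases around the annotated start of Ilp2, Ilp4, TFAM and Or85c, from the RefSeq copy of dm6, are shown as examples of genes called gained (Ilp2, Ilp4, TFAM) and lost (Or85c). Capitals mark matches on either strand to any of the following motifs, and no match overlaps another. The motif GAGAG is bound by the Trl protein. The E-box, bound by the clock proteins CLK and CYC, was searched as CACGTG. The core promoter element of the TBP protein was searched as TATAAA. The DRE, the element of the DREF protein, was searched as TATCGATA.
Ilp2, chr3L:9799448-9799747, plus strand: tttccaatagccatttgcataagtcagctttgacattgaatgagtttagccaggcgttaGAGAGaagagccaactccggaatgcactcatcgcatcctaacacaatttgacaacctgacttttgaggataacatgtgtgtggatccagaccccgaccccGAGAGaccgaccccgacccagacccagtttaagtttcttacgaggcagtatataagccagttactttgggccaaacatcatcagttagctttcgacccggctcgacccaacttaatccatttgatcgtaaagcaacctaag
Ilp4, chr3L:9804214-9804513, minus strand: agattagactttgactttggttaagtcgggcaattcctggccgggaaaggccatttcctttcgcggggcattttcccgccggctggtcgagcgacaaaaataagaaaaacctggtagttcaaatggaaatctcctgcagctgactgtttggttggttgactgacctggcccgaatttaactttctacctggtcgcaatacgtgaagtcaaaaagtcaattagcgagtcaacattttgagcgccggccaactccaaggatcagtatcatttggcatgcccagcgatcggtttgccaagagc
TFAM, chr3R:20576961-20577260, minus strand: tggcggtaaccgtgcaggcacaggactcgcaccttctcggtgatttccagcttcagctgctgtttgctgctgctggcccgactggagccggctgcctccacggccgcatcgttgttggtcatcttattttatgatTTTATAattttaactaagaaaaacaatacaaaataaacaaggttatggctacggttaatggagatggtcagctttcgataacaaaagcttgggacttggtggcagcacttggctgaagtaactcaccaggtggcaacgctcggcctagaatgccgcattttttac
Or85c, chr3R:8512973-8513272, minus strand: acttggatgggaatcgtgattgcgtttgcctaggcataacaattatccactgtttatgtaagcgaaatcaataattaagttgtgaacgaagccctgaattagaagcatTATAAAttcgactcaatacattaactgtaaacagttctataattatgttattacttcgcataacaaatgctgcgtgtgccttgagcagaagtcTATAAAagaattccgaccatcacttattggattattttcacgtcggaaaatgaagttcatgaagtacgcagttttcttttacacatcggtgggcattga

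These windows run from 250 bases before to 50 after the start. The windows of Ilp4 and TFAM were wholly covered in both mutant lists and free of peaks in both control lists. That of Ilp2 was wholly covered in both mutant lists, but also 98.7% covered in control replicate 2 and 0% in control replicate 1, so the peak of that control ended at the start of the gene body. The window of Or85c was at 0% in both mutant lists, against 100% and 53.3% in the control lists. GAGAG had 2 matches in the window of Ilp2, and TATAAA had 1 in that of TFAM and 2 in that of Or85c. GAGAG occurred in 23.2% of the 422 gained and 20.3% of the 79 lost windows, against 29.7% of all 13945, and TATAAA in 49.1% of gained and 63.3% of lost windows, against 45.8% of all. The E-box occurred in 5.92% of gained and 2.53% of lost windows (4.20% of all), and the DRE in 5.69% and 5.06% (9.36% of all). The G and C content of all windows had a median of 38%, against 38.3% for gained and 34.7% for lost genes.

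LKRSDH itself (chr2L:7791175-7795959, minus strand) had 34.3% and 48.2% in the mutant lists, against 0% and 51.7% in the control lists. Art4 (chr3R:9982816-9986060, minus strand), which overlaps CG46467 and Glut4EF, had 27.9% and 100% in the mutant lists, against 0% and 46.9% in the control lists. In both genes the groups overlapped and control replicate 1 had no peak. None of the 9 arginine methyltransferase genes was gained or lost, beside 3.03% and 0.567% of all genes. Both mutant lists were above both control lists in 2 of them, Art7 and csul, which encodes the fly counterpart of PRMT5, and below in 1, Art8. These are 22.2% and 11.1%, beside 18.9% and 3.76% of all genes.

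Genes of the steroid hormone pathway in which LKRSDH was described held no gained or lost member. With 3.03% of all genes gained and 0.567% lost, lists of this size would hold few or none. Of 23 ecdysone response genes (receptor subunits, early and late targets), 6 had both mutant lists above both control lists and 1 the reverse (26.1% and 4.35%, beside 18.9% and 3.76% of all genes). Their median difference was 1.82 percentage points, against 4.86 over all genes. Of 20 insulin signalling genes (receptor, kinases and their targets), 5 were higher (25%) and none lower in that order, with a median difference of 16.5 points, and none was gained or lost. Cell death genes gave 3 of 17 higher (17.6%) and none lower. In these lists the mean of mutant replicate 2 minus control replicate 2 was -2.52, 7.52 and 13.8 points, beside 8.81 over all genes.

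Of 18 circadian clock genes, none was gained or lost, beside 3.03% and 0.567% of all genes. Both mutant lists were above both control lists in 3, jet, cyc and tim, and both control lists above both mutant lists in 1, Clk. Those shares, 16.7% and 5.56%, lay near the 18.9% and 3.76% of all genes. These 4 were picked after their values were seen. Clk, whose product activates the clock with that of cyc, had 24.5% and 35.7% in the mutant lists against 45.6% and 52.5% in the control lists. cyc had 39.2% and 37.4% against 0% and 0%, and tim, which encodes a light-sensitive repressor of the loop, had 37.5% and 44.6% against 21.3% and 33.9%. Pdf, the neuropeptide of the clock neurons, was covered to 90.1% or more in all 4 lists.

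Among 38 neuropeptide genes, 2 gained (5.26%, beside 3.03% of all genes) and 1 lost the mark (2.63%, beside 0.567%). Trissin had 100% and 100% in the mutant lists against 0% and 6.45% in the control lists, and Ptth, the brain hormone that starts ecdysone synthesis in larvae, had 68.2% and 100% against 0% and 0%. Lk, which encodes leucokinin, a peptide of fluid balance and feeding, had 0% and 0% in the mutant lists against 100% and 66.0% in the control lists. The order without a margin held for 5 genes upwards (13.2%, beside 18.9% of all genes) and 3 downwards (7.89%, beside 3.76%).

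The markers of cell types in the head were counted against the 18.9% and 3.76% of all genes in order. Of 26 neuronal genes, 7 had both mutant lists above both control lists (26.9%) and none the reverse. In glial genes the counts were 3 and 1 of 13 (23.1% and 7.69%), in photoreceptor genes 3 and none of 22 (13.6% and 0%), and in muscle genes 1 and 1 of 14 (7.14% each). Of these 4 lists only the photoreceptor list held a gained gene (4.55% of that list, beside 3.03% of all genes). It was ninaA, a cyclophilin that brings rhodopsin to the membrane, with 100% and 100% in the mutant lists against 0% and 20.9% in the control lists. Testis genes, which heads should not express, had similar counts in order (4 up and 1 down of 19, 21.1% and 5.26%). Of them 2 gained the mark (10.5%, beside 3.03% of all genes), Mst87F (100% and 100% against 26.0% and 0%) and comr (100% and 100% against 42.9% and 44.3%). Female germline genes gave 1 and 1 of 19 (5.26% each).

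The chemosensory families were counted against 3.03% of all genes gained, 0.567% lost, and 18.9% and 3.76% in order. On the autosomal arms alone the first 2 shares were 3.62% and 0.677%. Of 60 gustatory receptor genes, 7 gained the mark (11.7%) and none lost it. In the order without a margin 20 were up (33.3%) and 3 down (5%). Gr59c and its neighbour Gr59d (100% and 94.1% against 0% and 0%) lie side by side on 2R, and Gr22b (100% and 92.0% against 0% and 0%) and Gr92a (70.0% and 100% against 0% and 0%) lie elsewhere. In each mutant list Gr59c and Gr59d lay under 1 peak, so they are not independent measurements. Of 60 ionotropic receptor genes 4 gained (6.67%) and 1 lost the mark (1.67%), with 16.7% up and 5% down in order. The gained ones were Ir94g, Ir94h, Ir94d and Ir52c, and the lost one Ir48c. Ir94g and Ir94h lay under 1 peak in each mutant list, so the share gained counts that peak for both genes. Ir94d had 74.0% and 100% in the mutant lists against 23.7% and 0% in the control lists. Of 60 odorant receptor genes, 2 gained (Or98a and Or88a) and 2 lost the mark (Or85c and Or94b), which is 3.33% for each, with 15% up and 3.33% down in order. Of 51 odorant binding protein genes 5 gained the mark (9.80%, with 19.6% up and 3.92% down in order), among them Obp50e, Obp50a, Obp99d and Obp83g, and 1 lost it (1.96%), Obp56g, with 0% and 0% in the mutant lists against 78.2% and 100% in the control lists. In mutant replicate 1 Obp50e and Obp50a lay under 1 peak. The mean coverage of the gustatory receptors was 54.5% and 49.8% in the mutant lists and 18.8% and 36.2% in the control lists, and the pair of replicate 2 differed by 13.5 points against 8.81 over all genes.

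Cuticle genes of the Cpr family gave 4 gained genes of 70, Cpr65Aw, Cpr65Ec, Cpr72Eb and Cpr76Ba, and 1 lost gene, Cpr35B, with 16 up and 3 down in order. These are 5.71% gained, 1.43% lost, 22.9% up and 4.29% down, beside 3.03%, 0.567%, 18.9% and 3.76% of all genes. Of 14 antimicrobial peptide genes, DptA, which encodes a diptericin, and CecC, a cecropin, gained the mark, each at 100% in both mutant lists and at 0% in both control lists. They were the 2 genes up in order (14.3%), and 1 was down (7.14%). The means of that list went opposite ways in the 2 pairs of replicates, by -10.3 points in replicate 1 and 41.2 points in replicate 2.

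The Hox complexes, large Polycomb-regulated domains on 3R, had the largest share of genes in order. In 5 of 12 genes (41.7%, beside 18.9% of all) both mutant lists were above both control lists, and in none the reverse, although none reached the margin of 50 points. The 5, named after their values were seen, were Abd-B, Dfd, Ubx, lab and zen2. Ubx had 54.8% and 87.8% in the mutant lists against 16.4% and 51.8% in the control lists, and Dfd had 67.2% and 77.8% against 10.9% and 60.6%. Their values in mutant replicate 1 were only 3.01 and 6.62 points above control replicate 2. The genes are neighbours, so they are not independent measurements. Of 19 Polycomb group genes found, 1 gained the mark (5.26%, beside 3.03% of all genes). It was esc, a subunit of the complex that places H3K27me3, with 90.2% and 100% in the mutant lists against 9.85% and 24.5% in the control lists.

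Some heat shock genes went the other way. In 4 of 15 (26.7%, beside 3.76% of all genes) both control lists were above both mutant lists, in none the reverse, and the median difference was -16.9 points, against 4.86 over all genes. The 4, named after their values were seen, were Hsc70-5, a mitochondrial chaperone, and the small heat shock genes Hsp22, Hsp67Bc and CG4456. The last 3 lie close together on 3L, so they are not independent measurements. All other genes of the list overlapped between genotypes, among them Hsp67Ba (69.8% and 0% in the mutant lists against 0% and 0% in the control lists). Hsp22 had 0% and 0% in the mutant lists against 100% and 26.2% in the control lists, and Hsc70-5 had 21.8% and 0% against 93.9% and 63.4%. None passed the margin of 50 points. Both pairs of replicates had a lower mean in mutants, by -19.4 and -16.6 points.

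The cytosolic ribosomal protein genes had most of the mark in control replicate 1. Over the 86 cytosolic ribosomal protein genes, the mean coverage was 8.12% and 13.7% in the mutant lists, against 16.9% and 6.90% in the control lists. Of them 1 was lost (1.16%, beside 0.567% of all genes), RpS23, with 0% and 0% in mutants against 84.4% and 54.4% in controls. Over 84 respiratory chain genes it was 16.2% and 29.3% in the mutant lists, against 24.8% and 20.5% in the control lists. UQCR-6.4L, of complex III, gained the mark (100% and 100% against 0% and 16.9%), and ND-B14, of complex I, lost it (0% and 0% against 62.5% and 100%). UQCR-6.4L overlaps Mipp1, and ND-B14 overlaps CG12942. With 1 gained gene of 84, the share gained was below the 3.03% of all genes. With 1 lost gene, the share lost was above 0.567%. In the order without a margin 10 were up and 2 down, smaller shares than the 18.9% and 3.76% of all genes. In both gene lists the mean of control replicate 1 lay above that of control replicate 2.

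**Figure D5:**
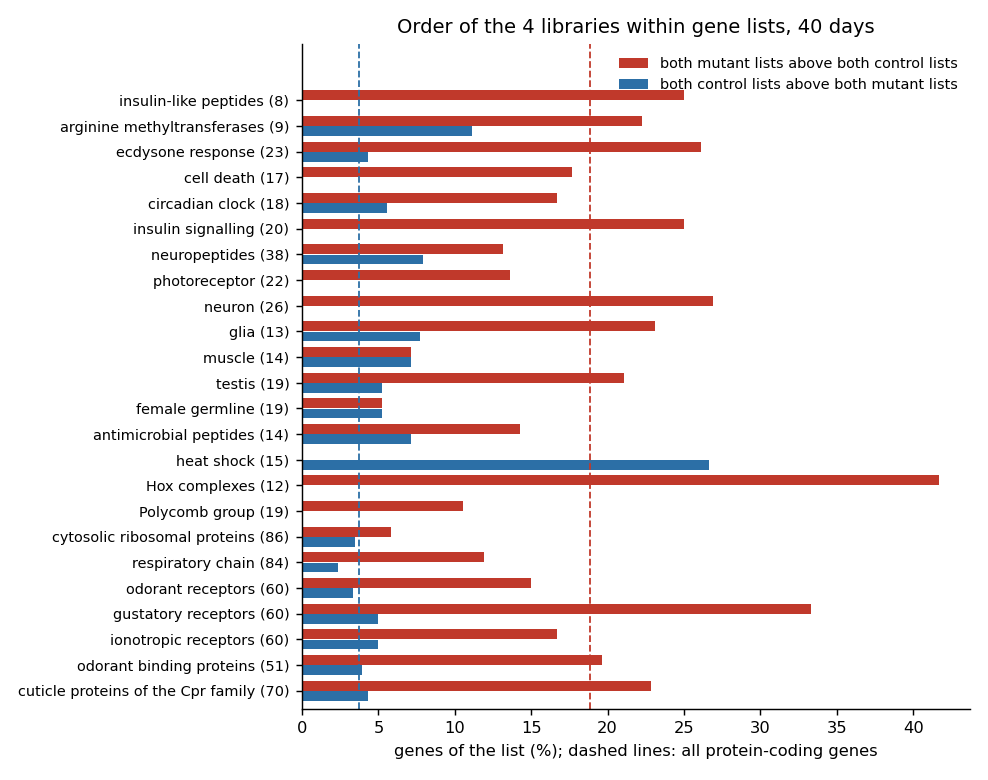
Share of the genes of each list, in percent, in which both mutant lists lie above both control lists (red, upper bar) or both control lists above both mutant lists (blue, lower bar) at 40 days; list sizes are in parentheses and dashed lines give all protein-coding genes (18.9% and 3.76%). Hox genes (41.7%) and gustatory receptors (33.3%) extend furthest to the right in red, and heat shock genes (26.7%) in blue.

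Windows, which need no gene models, also gave more gains than losses with all 4 lists. Of 26773 windows of 5 kb on the assembled chromosomes, 234 gained the mark by the margin of 50 points (0.874%) and 13 lost it (0.0486%). With the 3 lists other than control replicate 1 the counts were 429 and 276, and at equal covered length of those 3 lists they were 361 gained and 460 lost. Gained windows were scattered. The 234 fell into 229 runs, and the 5 longest runs spanned 10 kb each. They lay in zip, the heavy chain of non-muscle myosin (chr2R:24995001-25005000), in the kinase gene Wnk (chr3L:21545001-21555000), over the kinase gene Pak and CG42724 (chr3R:6355001-6365000), in hth, a homeodomain cofactor of Hox proteins (chr3R:10585001-10595000), and in a stretch without protein-coding genes (chr2L:5490001-5500000).

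The run over Pak showed the order in all libraries. Its coverage was 70.8% and 59.6% in the mutant lists against 0% and 0% in the control lists at 40 days, and 50.7% and 69.0% in mutants against 7.40% and 11.4% in controls at 3 days. In zip the values were 88.8% and 100% in mutants against 23.1% and 12.2% in controls at 40 days, and 53.2% and 50.3% against 37.7% and 42.0% at 3 days. In Wnk (90.1% and 92.6% against 14.4% and 17.3% at 40 days) the 3-day-old lists overlapped, with 6.54% and 30.5% in mutants and 32.0% and 24.9% in controls, and in hth (89.5% and 86.5% against 13.3% and 22.1%) they did too. The 3 lost runs named were single windows of 5 kb. They lay over Npl4 and CG5079 (chr3R:25610001-25615000), in the kinase gene Btk (chr2L:8295001-8300000) and in CG44388 (chr2R:17185001-17190000), with 10.4% and 0%, 0% and 0%, and 8.60% and 25.4% in the mutant lists, against 83.6% and 77.7%, 71.3% and 63.0%, and 87.0% and 100% in the control lists.

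The Polycomb mark was higher on the gained genes than on other genes, in both genotypes. H3K27me3 at 40 days covered 49.6% and 48.9% of the gained gene bodies in the mutant lists, against 48.1% and 43.6% in the control lists. The other genes of the autosomal arms had 27.9% and 27.2% in the mutant lists and 28.6% and 26.0% in the control lists. The lost genes had 40.1% and 37.7% in the mutant lists and 41.2% and 42.3% in the control lists, so they too lay above the other genes. By the rule, gained genes were at least 50% covered by H3R17me2 in both mutant lists, and lost genes in both control lists. The other genes include ones free of peaks, so the higher H3K27me3 cannot be told apart from that of H3R17me2-covered sequence in general. The genotype difference in H3K27me3 was 3.36 points on gained genes and -2.85 points on lost genes (exact permutation test, two-sided, p = 0.33 for each, n = 2 each; 2 of 3 gene sets compared), and 0.235 points on the other genes (p = 1.0, same exact test). The input samples are not labelled by mark, so both marks may share input chromatin. The gene sets were chosen by H3R17me2 in the same groups, so the signs are not independent of that choice. An effect of shared input was not tested. Windows of 5 kb on the arms with at least 50% of their length under H3R17me2 peaks had more H3K27me3 than windows free of H3R17me2 in each list, 57.4% against 11.3% and 56.9% against 7.01% for the mutant lists, and 47.6% against 28.4% and 59.2% against 10.8% for the control lists. Covered windows were also richer in G and C than free ones in 3 lists (medians of 43.4% and 40.0%, and 42.7% and 40.3% for the mutant lists, 43.0% and 40.3% for control replicate 2), and poorer in control replicate 1 (41.3% and 42.3%).

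One strong peak separated the genotypes at 40 days. In an intron of nAChRalpha3, a nicotinic acetylcholine receptor subunit gene on the X, neither mutant list had a peak, while control replicate 1 had one at chrX:8293823-8296106 (fold enrichment 2.78, -log10 q of 57.9) and control replicate 2 one at chrX:8294005-8295938 (fold 1.51, -log10 q of 2.85). By q value it was the strongest peak of control replicate 2 on the assembled chromosomes, and it was picked after its values were seen. The H3K27me3 lists of the same age had a peak there in both control libraries (fold 3.48 and 3.51) and none in either mutant library. Those lists may share input chromatin with the H3R17me2 lists, and an effect of that was not tested. At 3 days an H3R17me2 peak was listed in mutant replicate 1 (fold 1.60), none in mutant replicate 2, and one in each control library (fold 1.55 and 1.36).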

How the data were processed

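The authors trimmed reads with Trim Galore 0.6.0, aligned them to dm6 with Bowtie2 2.5.1, used SAMtools 1.19, removed duplicates and called broad peaks of at least 500 bp against input with MACS2 2.2.7.1. The fold enrichment of each peak is a ratio of immunoprecipitated to input signal, computed by the authors as a mean over the region and used as deposited. The -log10 p and -log10 q of each peak come from the same MACS2 step of the authors, as deposited. The listed p of a broad peak is a mean over its region. Many listed peaks have a weaker p than the cutoff given for calling. The lowest listed -log10 p was 1.01 in each H3R17me2 list of 40-day-old flies. The study names no separate cutoff for broad regions, and the source of that common floor was not tested. The lists hold no counts and the study states sequencing for the assay as a whole, so the depth of each list is unknown, and which input served which list is not given in the sources used here. A change in depth or input moves the number and length of peaks called, and so every coverage value.

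Overlapping peaks of a list were merged. Genes came from the Ensembl BDGP6 annotation, release 115, sequence and chromosome lengths from RefSeq, and peaks stayed within those lengths. Groups follow the sample labels. Library values were compared by exact permutation. Genes and windows of 5 kb were called by a margin of 50 percentage points, without a test. Named genes were LKRSDH, Art4 and the insulin-like peptides, the 15 gained and 10 lost genes with the largest gap (ties to the longer gene), up to 4 gained or lost members of each of 25 gene lists, and the genes of the 5 longest gained and 3 longest lost runs of windows. The members, lists and rules were chosen with earlier results of these data known. Older symbols in the lists were replaced by current ones after the annotation was read. Python 3.11.15, NumPy 2.4.6, pandas 2.3.3 and matplotlib 3.10.9 were used, and the functions were tested on simulated lists. Of 16 deposited lists 12 were used, and the 4 H3K27me3 lists of 3-day-old flies were not used here. Alternatives varied the peak threshold, the number or total length of peaks, the margin, the regions, the pairing and the libraries.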

Additional observations from a re-analysis of the deposited data

Results flagged for a closer look

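In 5 named genes both libraries of each genotype moved one way at 40 days and the opposite way at 3 days. The difference between ages was not tested for these genes, and with 2 libraries a group such orders arise often. For comr, a gene of the testis meiotic programme, mutant minus control coverage was 56.4 points at 40 days and -36.3 points at 3 days. For the ionotropic receptor gene Ir52c it was 57.1 and -55.8 points, and for Ir94d, of the same family, 75.1 and -62.0 points. In the other direction CG14537 gave -100 points at 40 days and 24.5 points at 3 days, and the odorant receptor gene Or94b gave -75.2 and 29.9 points.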

How the results depend on the processing

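The genotype difference depended on how many of the weak peaks entered and on control replicate 1. With only peaks at a -log10 p of at least 2, covered length differed by -0.031 Mb and the number of peaks by -22.5, and 1 gene and 1 window gained while 0 genes and 2 windows lost the mark. With the top peaks up to the least covered length (21.1 Mb), the number of peaks differed by -2512, 222 genes gained and 121 lost the mark, 114 windows lost it, and Ilp4 (-9.65 points) and Mst87F (-13 points) turned to the control side. Of the 60 gained or lost genes named, 9 then differed by 0, TFAM, PolG2, GatC, CG8159, Trissin, Gr92a, Or88a, Ir52c and 1 gene of 2L that overlaps Tfb4, and 17 kept their call; at a -log10 p of at least 2, 58 differed by 0 and 0 kept it. Mean gene coverage differed by 0.472, 0.0459 and, with the 3 lists other than control replicate 1 at one length, 0.382 points. With the same number of top peaks, 47 windows lost the mark, Mst87F stood at -13 points and 40 of the 60 genes kept their call. At 25 percentage points 1050 genes gained and 195 lost, and 1444 windows gained and 190 lost. At 75 points the counts were 164 and 32 genes, and 18 and 0 windows. With 1 kb upstream added, 261 genes gained and 40 lost, and 34 of the 60 kept their call. Windows of 1 kb gave 6523 gained and 1498 lost. With the 3 lists other than control replicate 1 held to equal covered length, an alternative chosen after the data were seen, 581 genes lost the mark, 361 windows gained and 460 lost it.

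Leaving out each library in turn gave differences of -490 to 4700 peaks, 603 to 1499 gained and 156 to 420 lost genes, and 429 to 1983 gained and 77 to 276 lost windows; covered length and mean gene coverage stayed higher in mutants. The 60 gained or lost genes named kept their direction under each omission, as the rule ensures. The medians of 25 gene lists and of all genes were above 0 in 9, at 0 in 10 and below 0 in 7 without control replicate 1.

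The replicate numbers share no stated batch, and over genes the replicate differences of mutants and controls correlated at -0.0071. With the replicate block 523 genes gained and 87 lost the mark, and 458 windows gained and 30 lost it. The blocked differences were 13.02 Mb, 2105 peaks and 11.3 points of gene coverage, where an exact sign-flip permutation of 2 pairs gave p = 0.50, 1.0 and 0.50.

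Depth could not be assessed, no list holds counts, and 2 libraries a side allow no call for any single gene.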
